A study of Mus musculus with 9 samples.

Results

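Genes of the smooth muscle contractile apparatus and its transcription factor were read across all libraries, out of the 55276 gene symbols of the count table. They are the 10 symbols *Acta2*, *Actg2*, *Tagln*, *Myl9*, *Cnn1*, *Cnn2*, *Tpm1*, *Tpm2*, *Cald1* and *Srf*, taken from the table by name, with no threshold on a measured value. PPTR cells are a mouse intrahepatic cholangiocarcinoma line, a cancer of the bile duct lineage inside the liver. The cells of all groups descend from a liver cancer with Prom1CreERT2 and a Rosa-ZsGreen reporter, so that controls and clones share the genetic background of the line, and all were grown in serum-containing medium. The study asked which genes lie downstream of *Vcam1*, a cell surface adhesion receptor, and compared control cells (Vcam1ctrl, WT in the labels) with Vcam1KO1 and Vcam1KO2, each the progeny of a single cell after Cas9 cutting of *Vcam1*, in 3 libraries per group. Each knockout group is thus 1 clone, and a clone's own traits and the loss of *Vcam1* cannot be told apart within it.

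Smooth muscle cells and myofibroblasts contract by sliding actin filaments along myosin. Alpha smooth muscle actin (*Acta2*) and gamma smooth muscle actin (*Actg2*) form the filament, tropomyosins (*Tpm1*, *Tpm2*) lie along it, caldesmon (*Cald1*), calponins (*Cnn1*, *Cnn2*) and transgelin (*Tagln*) bind it, and *Myl9* encodes a regulatory light chain of myosin. Serum response factor (*Srf*) binds CArG boxes in many of these genes, together either with myocardin and the related factors MRTF-A and MRTF-B, which are held back by monomeric actin, or with ternary complex factors such as ELK1, which answer to ERK signalling.

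CArG boxes were looked for in the promoters first, since they are the DNA element through which SRF is known to act. RefSeq promoters on GRCm38.p6, from 250 bases before to 50 bases after the start, were at hand for 8 of the 10 genes, with 9 promoters in all. *Tagln* and *Actg2* were not among them. A CArG box was read as CC, then 6 bases that are each A or T, then GG, a pattern that is the same on both strands. It stood in 535 of all 32851 promoters of the same length (1.63%), and a looser form with exactly 1 G or C among the 6 inner bases in 8.50%. Either form stood in 9.98% of all promoters and in the promoters of 4 of the 8 genes, which are *Acta2*, *Cnn2*, *Myl9* and *Srf*. The genes were listed as SRF targets to begin with, so that count is a description and not a test, and a match is not evidence of binding. The sequences follow 5′ to 3′ on the strand of the gene with the boxes of either form in capitals. They are shown because they place the elements in the genes whose levels are described next.
Srf, chr17:46556176-46556362, minus strand: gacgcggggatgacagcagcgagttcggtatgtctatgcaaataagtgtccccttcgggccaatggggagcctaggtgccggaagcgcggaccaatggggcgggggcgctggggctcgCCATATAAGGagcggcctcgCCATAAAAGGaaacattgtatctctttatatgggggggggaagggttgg
Myl9, chr2:156775264-156775419, plus strand: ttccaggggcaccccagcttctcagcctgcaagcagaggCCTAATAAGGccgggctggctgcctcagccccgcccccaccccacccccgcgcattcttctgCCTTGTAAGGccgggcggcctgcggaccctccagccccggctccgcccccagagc
Cnn2, chr10:79988400-79988583, plus strand: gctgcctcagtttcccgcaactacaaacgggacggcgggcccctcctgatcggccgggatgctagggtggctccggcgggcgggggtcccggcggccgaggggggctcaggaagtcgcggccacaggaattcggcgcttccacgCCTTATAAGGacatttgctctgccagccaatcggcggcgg
Acta2 distal box, chr19:34255438-34255467, minus strand: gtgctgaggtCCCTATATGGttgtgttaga
Acta2 proximal box, chr19:34255388-34255417, minus strand: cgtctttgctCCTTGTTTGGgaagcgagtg

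*Srf* itself held 2 strict boxes, beginning 82 and 62 bases before its start, *Cnn2* 1 strict box at 56 bases, and *Myl9* 1 strict box at 161 bases and 1 looser box at 99 bases. Both boxes of *Acta2*, at 84 and 34 bases, were of the looser form, with 1 G or C inside. The GENCODE vM21 annotation begins the first exon of *Acta2* farther upstream than RefSeq, so only 30 bases around each box are shown for it, and the other windows end where a GENCODE exon begins. No box of either form was found within these windows of *Tpm1*, *Tpm2*, *Cald1* and *Cnn1*, which says only that these letters are not there.

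*Vcam1* was lower in every clone library than in every control library. It stood at 248, 220 and 329 CPM (counts scaled to library size with TMM factors) in Vcam1ctrl, at 98.8, 92.4 and 128 in Vcam1KO1 and at 119, 99.3 and 82.9 in Vcam1KO2, so its RNA was reduced and still present in the clones. Library totals ran from 53415907 to 125223073 counts. The third library of Vcam1KO1 stood apart from the other two of its clone, with a chi-square per degree of freedom of 240 and 275 against them, where the other two gave 36.04 with each other. Its level of *Mki67*, a proliferation gene, was 27.7 CPM where theirs was 216 and 238 CPM. The third library of Vcam1KO2 also differed from the other two of its clone, with 166 and 113 where they gave 35.8 with each other, and its *Mki67* stood at 331 CPM where theirs was 177 and 179 CPM. The 3 pairs of control libraries gave 118, 84.4 and 169, so the controls differed among themselves as well. Pooled counts that change without the third Vcam1KO1 library are given with and without it. RNA came from the bulk of each culture, so a higher share of cells with a transcript and more transcript per cell cannot be told apart.

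Most of the contractile genes were higher in the clones than in the controls, and most of those were higher in Vcam1KO1 than in Vcam1KO2. In Vcam1KO1 against Vcam1ctrl, 7 of the 9 genes that could be tested rose, with log2 fold changes from 0.69 for *Tpm1* to 10.16 for *Myl9*, where 29.9% of all 17672 tested genes rose. In Vcam1KO2 against the same controls, 5 of the 9 rose (25.3% of all genes) and *Tpm2* fell (26.1% of all genes). *Srf* passed the test in neither clone. Without Vcam1KO1 replicate 3, 9 of 10 tested genes rose in Vcam1KO1, where 10423 of all 18372 tested genes passed in either direction. In Vcam1KO2 7 then rose and 1 fell, where 10203 of the 18372 passed. Without Vcam1KO2 replicate 3, 8 of 10 rose in Vcam1KO1 (10867 of all 18515 tested genes passed in either direction). In Vcam1KO2 5 then rose and 1 fell (8304 of the 18515 passed). All p-values are from the quasi-likelihood test of edgeR, adjusted by the method of Benjamini and Hochberg over all tested genes, with a threshold of 0.05. Counted instead by libraries that do not overlap between groups, in either direction, it was 8 of the 9 genes in Vcam1KO1 (66% of all genes) and 8 of the 9 in Vcam1KO2 (62.1% of all genes). *Actg2* did not pass the filter on low counts with all libraries and was not tested there. It was the gene added in the 2 refits above, where it passed the filter only through Vcam1KO1 libraries, in which it is higher. Its calls there were favoured by the filter. *Myl9* and *Tagln* were nearly silent in Vcam1ctrl and passed that filter only through the clone libraries, where they are higher, so their calls were favoured by the filter.

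With both clones pooled against Vcam1ctrl, so that differences between the clones count as spread, 6 of 9 genes rose and 0 fell (21.7% and 21.2% of all genes), and 7 of 9 did not overlap between groups (44.2% of all genes). The rises were *Acta2*, *Tagln*, *Myl9*, *Cnn2*, *Tpm1* and *Cald1*. That count rested on the control libraries: it was 2 without control replicate 1, 4 without control replicate 2 and 3 without control replicate 3, and *Cnn2* and *Tpm1* were the calls kept each time. Under limma-voom, the test of the study, 5 genes rose and *Tpm2* fell. Both clones were set against the same 3 control libraries, so the changes in the clones are not independent of each other. The pooled fit entered each clone library as a separate replicate, although libraries of the same clone are not independent samples of knockout clones. Its p-values thus do not measure the spread over further clones.

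**Figure D1:**
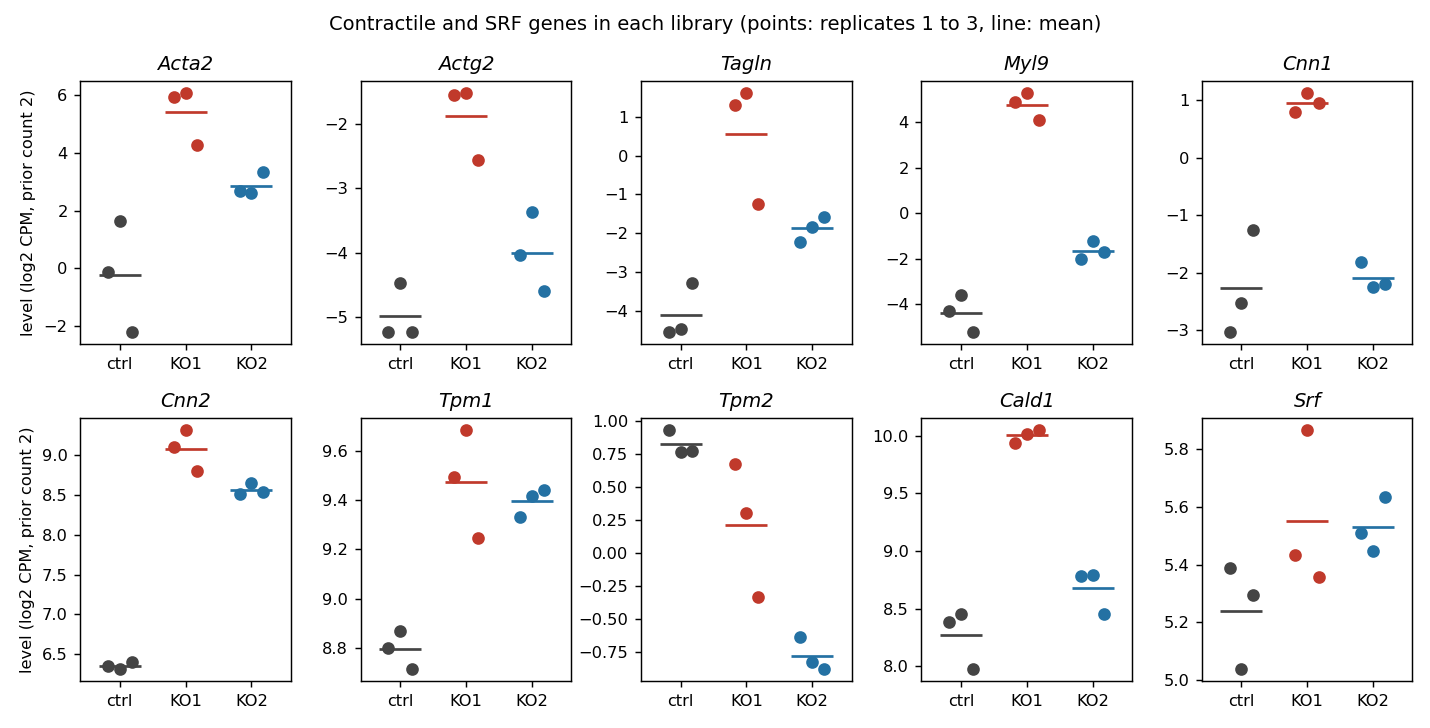
Level of each of the 10 genes in each of the 9 libraries as log2 CPM with a prior count of 2, with 1 panel and 1 vertical scale per gene, points for replicates 1 to 3 of each group (Vcam1ctrl, Vcam1KO1, Vcam1KO2) and a line at the group mean. Before the log2 scale, *Acta2* ran from 0.190 to 3.06 CPM in control libraries and from 19.2 to 67.1 CPM in Vcam1KO1 libraries, while *Srf* stayed between 32.9 and 58.3 CPM throughout.

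The transcription factor differed little between groups. *Srf* (chromosome 17, 46548329 to 46556175, minus strand, all positions from GENCODE vM21 on GRCm38) stood at 41.8, 32.9 and 39.2 CPM in Vcam1ctrl, at 43.2, 58.3 and 41.0 CPM in Vcam1KO1 and at 45.6, 43.6 and 49.6 CPM in Vcam1KO2. The Vcam1KO2 libraries all lay above the controls, by 1.22-fold, and 1 Vcam1KO1 library lay within the control range. The log2 fold change was 0.32 (95% interval -0.02 to 0.67, edgeR adjusted p = 0.097) in Vcam1KO1 and 0.28 (-0.06 to 0.63, edgeR adjusted p = 0.15) in Vcam1KO2. Without Vcam1KO1 replicate 3 the value for Vcam1KO1 was 0.42 and passed the test (edgeR adjusted p = 0.043).

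Of the 12 tested cofactors of SRF, 4 rose and 0 fell with both clones pooled, against 21.7% and 21.2% of all genes, and their median log2 fold change was 0.24 where that of all tested genes was 0.07. Without Vcam1KO1 replicate 3, 5 rose and 1 fell. *Elk1*, a ternary complex factor, rose from 21.7 ± 1.29 CPM (SD, n = 3) in Vcam1ctrl to 51.5 ± 5.74 CPM in Vcam1KO1 and 64.3 ± 5.43 CPM in Vcam1KO2, by 1.41 on the log2 scale (standard error 0.15, edgeR adjusted p = 7.8e-05). *Csrp2*, a LIM protein of smooth muscle, rose by 1.20, *Scai*, which represses MRTF, by 1.10, and *Fhl2*, a LIM-only cofactor, by 0.81 on that scale. The 2 actin-sensing cofactors moved apart between the clones. *Mrtfa* fell by 0.33 on the log2 scale in Vcam1KO1 (edgeR adjusted p = 0.015) and had a value of 0.15 in Vcam1KO2, while *Mrtfb* had a value of 0.34 in Vcam1KO1 and fell by 0.61 in Vcam1KO2 (edgeR adjusted p = 0.0042). Vcam1KO1 lay below Vcam1KO2 for *Mrtfa* by a log2 difference of -0.48 (edgeR adjusted p = 0.0045) and above it for *Mrtfb* by 0.95 (edgeR adjusted p = 0.00074).

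The other cofactors gave a mixed picture. *Fhl1*, a LIM-only protein of muscle, was at 26.3 ± 13.5 CPM in Vcam1ctrl and 37.2 ± 3.24 CPM in Vcam1KO1 but at 0.344 ± 0.119 CPM (SD, n = 3) in Vcam1KO2, a log2 fold change of -6.26 there (edgeR adjusted p = 3.9e-06). *Tgfb1i1*, which encodes the LIM protein Hic-5, fell in both clones, with log2 fold changes of -0.82 in Vcam1KO1 and -2.83 in Vcam1KO2. *Elk3*, another ternary complex factor, rose in Vcam1KO2 by 1.13 and had a value of 0.17 in Vcam1KO1, and *Csrp1*, a further LIM protein, rose by 0.70 in Vcam1KO2 and had a value of -0.31 in Vcam1KO1. *Elk4* and *Pias1* passed in neither clone, with pooled values of -0.18 and 0.21. *Myocd*, which encodes myocardin, was not tested, at a mean of 0.0308 CPM in Vcam1ctrl, 0.0398 CPM in Vcam1KO1 and 0.0476 CPM in Vcam1KO2, about the level of 3 counts in a library.

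The smooth muscle actins were low in the controls. *Acta2* (chromosome 19, 34241090 to 34255590), whose protein is the usual marker of myofibroblasts, stood at 0.900, 3.06 and 0.190 CPM in Vcam1ctrl, at 61.1, 67.1 and 19.2 CPM in Vcam1KO1 and at 6.30, 6.06 and 9.95 CPM in Vcam1KO2. The 3 groups did not overlap, although the controls differed widely among themselves and the third Vcam1KO1 library was well below the other two. The log2 fold change was 5.20 (standard error 0.87, edgeR adjusted p = 0.00068) in Vcam1KO1 and 2.48 (standard error 0.79, edgeR adjusted p = 0.025) in Vcam1KO2. The call in Vcam1KO2 was lost without control replicate 1 (edgeR adjusted p = 0.092) or without Vcam1KO2 replicate 3 (edgeR adjusted p = 0.068), and the call in Vcam1KO1 held without any library. Of the 2165 stretches of 31 bases in *Acta2* transcripts, the word length by which kallisto assigns reads, 1.39% also occur in other genes, mostly in the abundant *Actg1* (26 stretches). *Actg1* had a mean of 3802 CPM in Vcam1ctrl, against 1.38 CPM for *Acta2*. The low control values of *Acta2* may thus hold misassigned reads, whose number was not measured.

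*Actg2* (chromosome 6, 83512905 to 83536265) was read at 0, 1 and 0 counts in the Vcam1ctrl libraries, 21, 31 and 9 counts in Vcam1KO1 and 2, 5 and 1 counts in Vcam1KO2. Summed over libraries and scaled to their sizes, it was 70.1 times as high in Vcam1KO1 as in Vcam1ctrl (95% interval 12.1 to 2812) and 6.66 times as high as in Vcam1KO2 (3.17 to 16.1). These intervals cover counting error only and not the spread between libraries. Every Vcam1KO1 library lay above every other library, at 0.144 to 0.323 CPM, and Vcam1KO2 libraries overlapped the controls.

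*Myl9* (chromosome 2, 156775420 to 156781658) showed the widest range of the 10 genes. The regulatory light chain was read at 3, 3 and 0 counts in Vcam1ctrl, which is at or under a floor of 3 counts in each library, at 1987, 3735 and 1069 counts in Vcam1KO1, and at 13, 28 and 19 counts in Vcam1KO2. In CPM this was 0 to 0.0553 in Vcam1ctrl, 29.7, 39.0 and 17.1 in Vcam1KO1, and 0.223, 0.396 and 0.281 in Vcam1KO2, with no overlap between groups. The ratio of summed counts was 1300 (95% interval for counting error 597 to 3544) for Vcam1KO1 and 13.2 (5.70 to 37.3) for Vcam1KO2 against Vcam1ctrl. The fitted log2 fold changes, which depend on how the few control counts are smoothed, were 10.16 (standard error 0.61, edgeR adjusted p = 1.1e-06) and 3.60 (standard error 0.67, edgeR adjusted p = 0.0015). With the clones pooled, the call on *Myl9* was lost under limma-voom (adjusted p = 0.16) and without any 1 of the control libraries.

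The tropomyosin genes moved in opposite directions. *Tpm1* (chromosome 9, 67022590 to 67049406) stood at 445, 468 and 420 CPM in Vcam1ctrl, 720, 823 and 607 CPM in Vcam1KO1 and 644, 684 and 695 CPM in Vcam1KO2, and both clones lay above the controls without overlap. Its log2 fold change was 0.69 (standard error 0.13, edgeR adjusted p = 0.0015) in Vcam1KO1 and 0.60 (standard error 0.13, edgeR adjusted p = 0.0039) in Vcam1KO2, and the difference between the clones was 0.09 (95% interval -0.21 to 0.38). *Tpm2* (chromosome 4, 43514711 to 43523765), the beta tropomyosin of muscle, stood at 1.89, 1.68 and 1.68 CPM in Vcam1ctrl, 1.57, 1.21 and 0.766 CPM in Vcam1KO1 and 0.617, 0.537 and 0.517 CPM in Vcam1KO2. The 3 groups were ordered without overlap, with the controls highest and Vcam1KO2 lowest. *Tpm2* fell by 1.65 on the log2 scale in Vcam1KO2 (standard error 0.30, edgeR adjusted p = 0.0014), while in Vcam1KO1 its value was -0.56 (95% interval -1.22 to 0.09, edgeR adjusted p = 0.12).

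The calponins differed between the clones. *Cnn2* (chromosome 10, 79988584 to 79996062), the calponin also used outside muscle, stood at 81.3, 79.5 and 84.5 CPM in Vcam1ctrl, 551, 641 and 447 CPM in Vcam1KO1 and 366, 403 and 373 CPM in Vcam1KO2. All clone libraries lay above all controls, and the log2 fold change was 2.74 (standard error 0.15, edgeR adjusted p = 5.6e-07) in Vcam1KO1 and 2.22 (standard error 0.14, edgeR adjusted p = 2.2e-06) in Vcam1KO2. *Cnn1* (chromosome 9, 22099216 to 22109630), the calponin of differentiated smooth muscle, stood at 0.0956, 0.148 and 0.392 CPM in Vcam1ctrl, 1.71, 2.16 and 1.91 CPM in Vcam1KO1 and 0.257, 0.184 and 0.192 CPM in Vcam1KO2. It rose in Vcam1KO1 (log2 fold change 3.19, standard error 0.48, edgeR adjusted p = 0.00036) and in Vcam1KO2 its libraries lay within the control range, with a log2 fold change of 0.00 (95% interval -1.09 to 1.10) whose sign changed with the scaling of the libraries.

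*Tagln* (chromosome 9, 45929619 to 45936058), which encodes transgelin, was read at 2, 1 and 6 counts in Vcam1ctrl, 165, 293 and 25 counts in Vcam1KO1 and 11, 18 and 21 counts in Vcam1KO2. In CPM this was 0.0159 to 0.0759 in Vcam1ctrl, 2.47, 3.06 and 0.399 in Vcam1KO1 and 0.188, 0.254 and 0.310 in Vcam1KO2. The groups did not overlap, but the third Vcam1KO1 library was close to the Vcam1KO2 libraries. The log2 fold change in Vcam1KO1 was 5.72 (standard error 0.87, edgeR adjusted p = 0.00038), and 6.21 without that library. In Vcam1KO2 it was 2.76 (standard error 0.89, edgeR adjusted p = 0.027), a call that was lost under limma-voom (adjusted p = 0.079) and without any 1 of control replicates 1 and 2 and Vcam1KO2 replicates 2 and 3 (edgeR adjusted p = 0.057 to 0.10).

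*Cald1* (chromosome 6, 34598500 to 34775473) encodes caldesmon, of which the long form is found in smooth muscle and the short form in most cells, and the table does not separate them. It stood at 334, 350 and 252 CPM in Vcam1ctrl, 983, 1038 and 1063 CPM in Vcam1KO1 and 442, 444 and 351 CPM in Vcam1KO2. *Cald1* rose in Vcam1KO1 by 1.72 on the log2 scale (standard error 0.16, edgeR adjusted p = 1.5e-05). In Vcam1KO2 every library lay just above every control, and the log2 fold change was 0.40 (95% interval 0.05 to 0.75, edgeR adjusted p = 0.054). That value fell just short of the threshold and passed it under limma-voom (adjusted p = 0.042). The pooled call on *Cald1* was lost without any 1 of the control or Vcam1KO1 libraries.

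**Figure D2:**
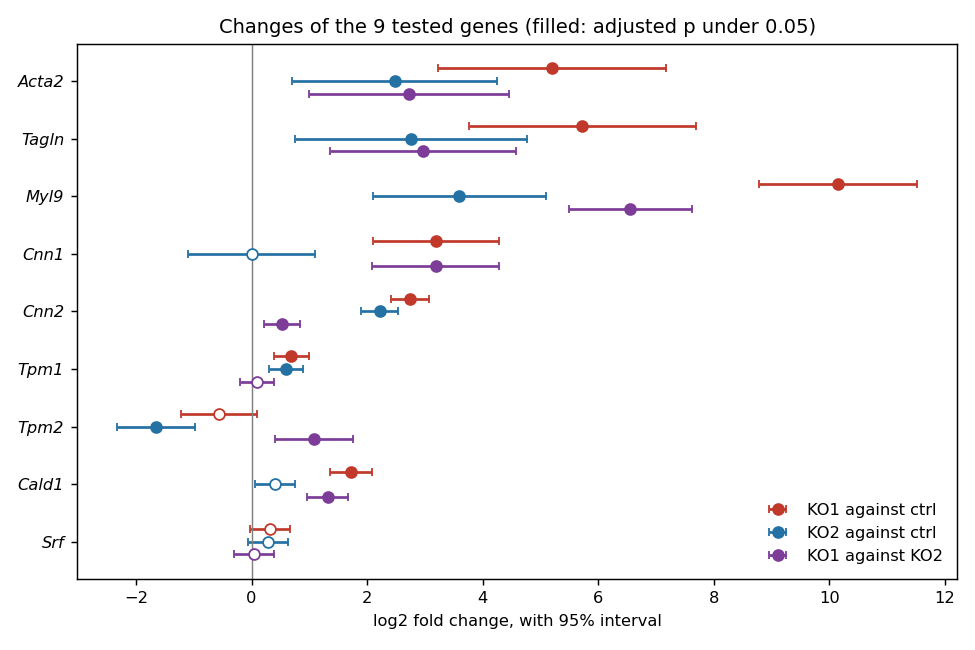
Log2 fold change of each of the 9 tested genes with its 95% interval, for Vcam1KO1 against control, Vcam1KO2 against control and Vcam1KO1 against Vcam1KO2, with filled points past an adjusted p of 0.05 in edgeR's quasi-likelihood test. Vcam1KO1 changes reach 10.16 for *Myl9*, *Tpm1* lies at 0.69 and 0.60 in the clones, and all *Srf* intervals include 0.

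The difference between the clones was tested in the same fit. Vcam1KO1 was higher than Vcam1KO2 for 7 of the 9 tested genes and lower for 0, where 20.2% of all genes were higher and 18.5% lower, and the libraries of the clones did not overlap for 7 of 9 genes (54.9% of all genes). The log2 difference was 6.56 for *Myl9* (edgeR adjusted p = 1.7e-05), 3.19 for *Cnn1* (edgeR adjusted p = 0.001) and 2.97 for *Tagln* (edgeR adjusted p = 0.0099). It was 2.72 for *Acta2*, 1.32 for *Cald1*, 1.09 for *Tpm2* and 0.52 for *Cnn2*, and the values for *Tpm1* and *Srf* were 0.09 and 0.04. The count fell to 4 without Vcam1KO1 replicate 1 or without Vcam1KO2 replicate 1. The calls on *Myl9*, *Cnn1*, *Tagln* and *Cald1* held without any library, and those on *Acta2*, *Cnn2* and *Tpm2* were each lost without some of them. Without Vcam1KO1 replicate 3, 8 of 10 tested genes were higher in Vcam1KO1, where 6011 of all 18372 tested genes passed in either direction. Without Vcam1KO2 replicate 3 it was 5, where 5624 of 18515 passed. In both refits *Actg2* was tested only through Vcam1KO1 libraries, where it is higher.

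Levels between genes were compared per length, as TPM, computed from the counts and the median length of each gene's coding transcripts. On the TPM scale in Vcam1ctrl, *Tpm1* was highest at 486 ± 27.0 (SD, n = 3), followed by *Cald1* at 137 ± 23.6, *Cnn2* at 86.8 ± 2.52 and *Srf* at 26.1 ± 3.20 TPM. *Tpm2* and *Acta2* followed at 1.498 ± 0.107 and 1.22 ± 1.32 TPM and did not differ beyond their spread, and *Cnn1*, *Myl9*, *Tagln* and *Actg2* had means of at most 0.211 TPM.

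In Vcam1KO1 the order changed below *Tpm1*. *Tpm1* stood at 902 ± 141 TPM, and *Cnn2* at 667 ± 123 TPM lay just above *Cald1* at 520 ± 15.4 TPM, with no overlap between their libraries. *Myl9* at 52.4 ± 20.4 TPM, *Acta2*, whose libraries ranged from 19.2 to 68.1 TPM, and *Srf* at 37.5 ± 7.55 TPM followed and overlapped with each other. In Vcam1KO2 *Tpm1*, *Cnn2*, *Cald1* and *Srf* led at 769 ± 34.0, 420 ± 8.20, 189 ± 22.1 and 33.2 ± 3.08 TPM. *Acta2* followed at 6.87 ± 2.15 TPM, and *Tpm2*, *Myl9*, *Tagln*, *Cnn1* and *Actg2* had means of at most 0.498 TPM. Ranked among 53675 genes with a length, *Cnn2* went from place 1930 in Vcam1ctrl to 229 in Vcam1KO1 and 371 in Vcam1KO2, and *Acta2* from 12803 to 3581 and 9390.

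The share of each gene in its own family was read on the same TPM scale. *Acta2* held 0.0179% of all actin transcripts in Vcam1ctrl, 0.524% in Vcam1KO1 and 0.111% in Vcam1KO2, while the cytoplasmic actins *Actb* and *Actg1* held nearly all of the rest. The share of *Actb* went from 38.9 ± 3.50% to 43.5 ± 0.682% and 48.7 ± 2.02% (SD, n = 3), without overlap between groups. *Actb* and *Actg1* themselves passed the test in neither clone. *Tpm1* was 35.6 ± 1.13% of tropomyosin transcripts in Vcam1ctrl, 53.4 ± 3.42% in Vcam1KO1 and 45.6 ± 1.52% in Vcam1KO2. *Tpm3*, a tropomyosin also used outside muscle, was 36.2 ± 1.80%, 17.9 ± 3.37% and 19.3 ± 0.749% of them, and its own level fell by 0.80 on the log2 scale in the pooled comparison (standard error 0.13, edgeR adjusted p = 0.0011). Counts per gene do not separate muscle from non-muscle forms of *Tpm1* or *Tpm3*.

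The calponin and transgelin family and the light chains changed their make-up more than the actins. *Cnn2* went from 7.66 ± 0.933% of the calponin and transgelin transcripts in Vcam1ctrl to 36.1 ± 2.40% in Vcam1KO1 and 25.2 ± 2.19% in Vcam1KO2. *Tagln2*, the transgelin of non-muscle cells, went from 77.2 ± 1.89% to 32.7 ± 2.80% and 52.4 ± 2.40%. Its own level was 566 ± 75.0 CPM in Vcam1ctrl, 337 ± 62.3 CPM in Vcam1KO1 and 540 ± 69.4 CPM in Vcam1KO2. The Vcam1KO2 libraries overlapped the controls in that level. *Cnn3*, the acidic calponin, rose by 1.30 on the log2 scale in the pooled comparison (standard error 0.17, edgeR adjusted p = 0.00029). *Myl9* was 3.66 ± 0.909% of the regulatory light chain transcripts in Vcam1KO1 and 0.0483 ± 0.0144% in Vcam1KO2, while *Myl12a* went from 55.4 ± 5.03% to 77.3 ± 3.91% and 77.5 ± 0.890% of them and *Myl12b* went from 44.6 ± 5.04% to 19.0 ± 4.78% and 22.4 ± 0.886%. The remaining isoforms were low or passed in few comparisons: *Acta1*, skeletal muscle actin, fell by 2.25 on the log2 scale in Vcam1KO2 from a mean of 0.397 CPM, *Tpm4* had a pooled value of 0.39, *Actc1* was at 0 in all control and Vcam1KO2 libraries, and *Tagln3* had a mean of at most 0.109 CPM in any group.

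**Figure D3:**
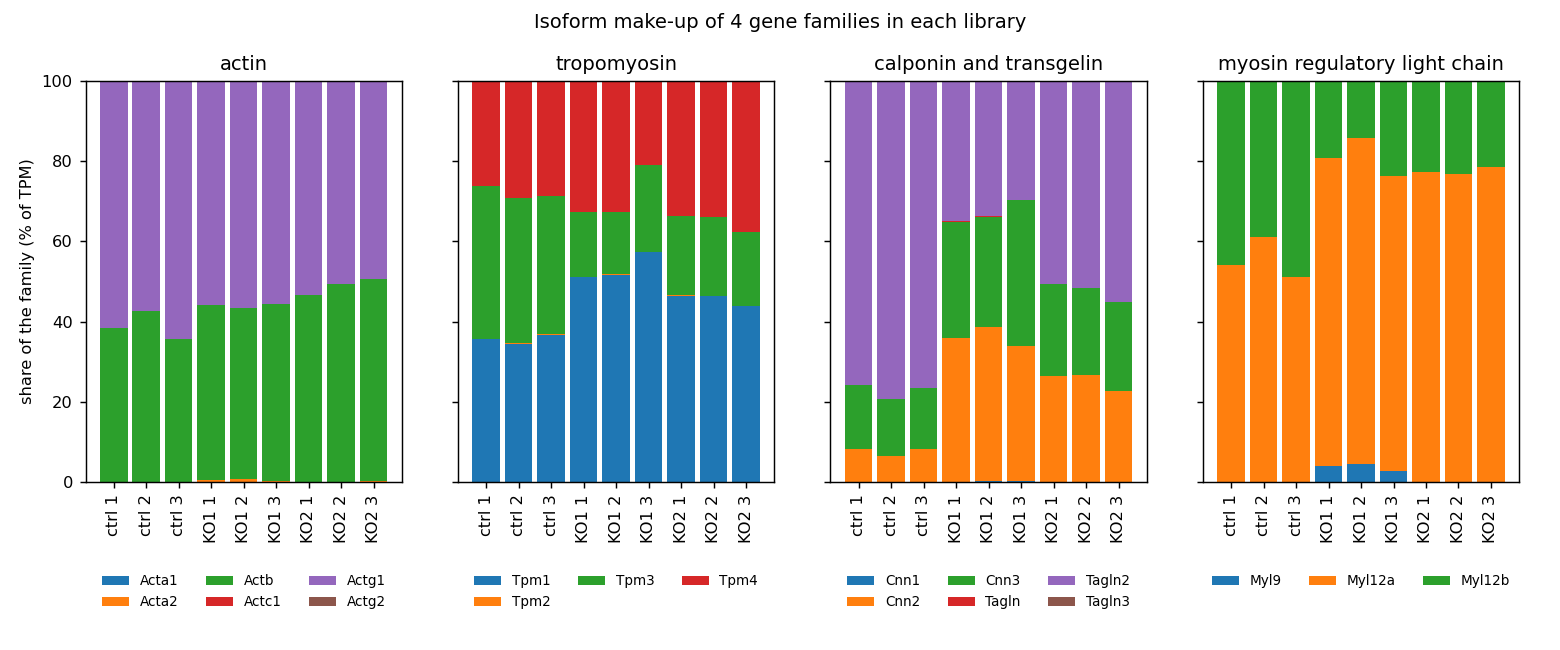
Make-up of the actin, tropomyosin, calponin and transgelin, and myosin regulatory light chain families in each of the 9 libraries, as the percent of the family's TPM held by each gene (stacked bars from 0 to 100%). *Cnn2* goes from 7.66% to 36.1% and 25.2% of its family and *Tpm1* from 35.6% to 53.4% and 45.6%, whereas *Acta2* reaches a mean of only 0.524% of actin.

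The 10 genes were also set beside lists of related genes, taken from general knowledge. Of 32 genes listed as targets of SRF with MRTF, 15 rose and 4 fell with the clones pooled (21.7% and 21.2% of all genes; 15 and 5 without Vcam1KO1 replicate 3), and their median log2 fold change was 0.59 where that of all tested genes was 0.07. That list contains 8 of the 10 genes, which gave 6 of the rises, and among the other 24 there were 9 rises and 4 falls. *Ankrd1*, a stretch-responsive nuclear protein on that list, fell by 2.85 on the log2 scale (standard error 0.53, edgeR adjusted p = 0.0023). Of 19 immediate early genes listed as targets of SRF with ternary complex factors, 0 rose and 3 fell (21.7% and 21.2% of all genes), with a median of -0.67. Some of the 19 varied widely within a group, such as *Fosb* from 21.9 to 1121 CPM and *Fos* from 338 to 1348 CPM in Vcam1ctrl. The 3 were *Dusp6* and *Dusp5*, phosphatases of ERK, and *Ier3*, at log2 fold changes of -3.51, -1.48 and -1.60. Without Vcam1KO1 replicate 3, 7 of these 19 fell and 0 rose, where 8208 of all 18372 tested genes passed in either direction.

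Other parts of the contractile apparatus changed in both directions. Of 22 genes of the myosin motor and its regulation, 3 rose and 3 fell (21.7% and 21.2% of all genes), with a median of 0.10, and without Vcam1KO1 replicate 3 it was 5 and 4. The rises were *Myl12a*, *Myh9*, the non-muscle myosin heavy chain IIA, and *Myl6*, an essential light chain, at 0.97, 0.87 and 0.77 on the log2 scale. Some genes of this list differed between the clones. *Mylk* stood at 66.5 ± 17.6 CPM in Vcam1ctrl, 181 ± 125 CPM in Vcam1KO1 and 28.2 ± 1.42 CPM in Vcam1KO2 (SD, n = 3). *Myh10* stood at 21.4 ± 2.91, 357 ± 283 and 24.1 ± 2.81 CPM in the same order. Vcam1KO1 replicate 3 was the highest library for both, at 326 and 683 CPM. Of 39 actin-binding and dense plaque proteins, 17 rose and 6 fell with the clones pooled, against the same shares of all genes. Their median was 0.45, and without Vcam1KO1 replicate 3 20 rose and 6 fell. *Synpo*, synaptopodin, rose by 3.15 on the log2 scale (standard error 0.36, edgeR adjusted p = 0.00012). *Vil1*, the villin of epithelial microvilli, went from 98.5 ± 6.21 CPM to 0.0269 ± 0.0304 and 0.0645 ± 0.0277 CPM (SD, n = 3), and *Pdlim1*, a PDZ and LIM protein, from 102 ± 9.83 CPM to 13.7 ± 1.94 and 0.651 ± 0.207 CPM. *Vil1* passed the filter on low counts only through the control libraries, where it is higher. Of 9 listed isoforms of actin, tropomyosin, calponin and transgelin, 7 were tested, of which 1 rose and 1 fell (2 and 1 without that library).

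Markers that define differentiated smooth muscle moved unevenly. Of 9 defining smooth muscle markers, 6 could be tested, of which 2 rose and 1 fell with the clones pooled (21.7% and 21.2% of all genes), and 3 and 2 without Vcam1KO1 replicate 3. *Lmod1*, a leiomodin that nucleates actin filaments, passed the filter on low counts only through the clone libraries, where it is higher. It went from 0.0207 ± 0.0189 CPM (SD, n = 3) in Vcam1ctrl to 3.88 ± 1.29 CPM in Vcam1KO1 and 0.704 ± 0.126 CPM in Vcam1KO2. *Ldb3*, a Z-disc protein, rose from 0.222 ± 0.0811 CPM to 3.15 ± 1.12 and 3.27 ± 0.997 CPM. With 39, 11 and 12 counts in Vcam1ctrl it too passed that filter only through the clone libraries, where it is higher. *Kcnmb1*, the beta subunit of a potassium channel of smooth muscle, fell from 0.799 ± 0.225 CPM to 0.0438 ± 0.0449 and 0.0411 ± 0.0110 CPM. It passed that filter only through the control libraries, where it is higher. *Myh11*, the smooth muscle myosin heavy chain, was at a mean of 0.0909 CPM in Vcam1ctrl, 0.267 CPM in Vcam1KO1 and 0.0156 CPM in Vcam1KO2 and, like *Myocd* and *Jph2*, was too low to be tested. *Smtn*, smoothelin, was abundant in all groups, at 307 ± 15.8 CPM in Vcam1ctrl, and fell in Vcam1KO2 to 161 ± 20.4 CPM, and *Des* and *Synpo2* had pooled log2 fold changes of 0.81 and 0.40 that did not pass. The summed level of the 9 markers was 301 to 324 CPM in Vcam1ctrl, 228 to 358 CPM in Vcam1KO1 and 167 to 201 CPM in Vcam1KO2. In every group it was mostly *Smtn*, so the sum says little of the other markers.

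Markers of other cell types moved in the same comparison. All counts are to be read against the 21.7% of all genes that rose and the 21.2% that fell with the clones pooled. Of 6 tested of 8 fibroblast markers, 4 rose and 0 fell, and their summed level was 408 to 803 CPM in Vcam1ctrl, 9828 to 12206 CPM in Vcam1KO1 and 5858 to 7108 CPM in Vcam1KO2, in the clones mostly the collagen *Col1a1*, with *Lum* at 0 in Vcam1ctrl. *Col1a1* rose by 6.06, *Col3a1* by 4.88 and *Pdgfra*, a growth factor receptor of fibroblasts, by 1.95 on the log2 scale. In Vcam1KO1 alone 3 rose and 1 fell (29.9% and 30% of all genes, and 4 and 2 genes without its replicate 3), the fall being the proteoglycan *Dcn*, decorin, at 74.6 ± 26.6 CPM in Vcam1ctrl, 4.34 ± 3.47 CPM in Vcam1KO1 and 92.0 ± 34.9 CPM in Vcam1KO2 (SD, n = 3). Of 6 tested of 10 stellate cell and pericyte markers, 2 rose and 2 fell (3 and 3 of 7 without Vcam1KO1 replicate 3), and their sum was 53.1 to 86.1 CPM in Vcam1ctrl, 588 to 851 CPM in Vcam1KO1 and 409 to 488 CPM in Vcam1KO2, in the clones mostly *Pdgfrb*, which rose by 4.15. *Lrat*, the vitamin A storing enzyme that defines stellate cells, was at 0 in Vcam1ctrl and Vcam1KO2 and at 1, 0 and 0 counts in Vcam1KO1, and the pericyte marker *Cspg4* fell by 7.40 on the log2 scale. *Cspg4* passed the filter on low counts only through the control libraries, where it is higher. The part of these markers in the contractile genes' changes was not tested.

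Several markers that define bile duct cells were near 0 in the clones. Of 8 biliary markers 1 rose and 5 fell. *Krt19*, a keratin of bile ducts, went from 2291 ± 145 CPM in Vcam1ctrl to 0.0596 ± 0.0387 CPM in Vcam1KO1 and 0.149 ± 0.0672 CPM in Vcam1KO2. *Krt7* and *Epcam*, a further duct keratin and an epithelial adhesion protein, were at 0.354 and 0.0334 CPM in Vcam1KO1 and at 0.597 and 0.00493 CPM in Vcam1KO2. The summed level of the list was nonetheless 4931 to 6213 CPM in Vcam1ctrl and 7634 to 11081 CPM over the clones, through *Spp1*, osteopontin. All 5 tested of 6 hepatocyte markers fell, including *Ttr* and *Hnf4a*, the latter at 226 ± 32.8 CPM in Vcam1ctrl and 0 in every clone library. In Vcam1KO1 alone 4 of them fell (30% of all genes). *Ttr*, *Hnf4a*, *Serpina1a* and *Apoa1* passed the filter on low counts only through the control libraries, where they are higher. The same holds for *Krt19* and *Epcam* above, so these calls were favoured by the filter. Endothelial markers summed to at most 2.44 CPM and haematopoietic ones to at most 10.4 CPM in any library. Of 3 tested endothelial genes 0 passed, and of 3 tested haematopoietic genes 1 rose and 1 fell (0 and 1 without Vcam1KO1 replicate 3). Of 5 tested of 10 skeletal and cardiac muscle genes, 0 rose and 2 fell, among them *Tnnt2*, cardiac troponin T, by 5.26 on the log2 scale, and *Myod1* and *Myog* were at 0 in every library. The part of these shifts in the contractile genes' changes was not tested either.

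The genes whose log2 level followed *Acta2* most closely over the 9 libraries, among 10876 genes with a mean of at least 5 CPM, were *Fam98a* (Pearson's r = 0.993), the collagen gene *Col16a1* (0.991), the septin gene *Sept7* (0.984), *Zfp938* (0.977) and *Scoc* (0.976). Those closest to *Srf* were *Proser3* (0.882), the alpha-actinin gene *Actn4* (0.870), *Zranb3* (0.868), *Ints1* (0.860) and *Wee1* (0.859). The 9 libraries form 3 groups that differ in many genes, so a high r follows from any like ordering of the groups and is given as a description.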

How the data were processed

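RNA of Vcam1ctrl, Vcam1KO1 and Vcam1KO2 cells, collected from different passages, was sequenced by the authors as stranded paired-end mRNA libraries and pseudoaligned with kallisto 0.46.1 to GRCm38 transcripts (mm10). The deposited table holds estimated counts per gene symbol, without normalization. All values were whole numbers, 0 rows lacked a gene name and 0 columns were left out. The step that summed transcripts to genes is not given in the sources used here.

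Groups were taken from the labels. Further alleles shared by all groups are not reported here. Nothing says that the libraries are separate cultures beyond the passages, so p-values measure the spread between these libraries. Libraries of a group differed by more than sampling noise and each counted as 1 replicate. Counts were filtered with filterByExpr by group (17672 genes kept), scaled with TMM and tested with the quasi-likelihood test of edgeR 4.0.16 in R 4.3.3, with Benjamini-Hochberg adjustment over all tested genes. Pooled clones were tested in a fit with 2 groups, single clones with all 9 libraries as 3 groups. Totals of 53415907 to 125223073 counts put 3 counts at 0.0239 to 0.0553 CPM. Ratios of summed counts have exact binomial 95% intervals. TPM used the median length of GENCODE vM21 coding transcripts (53675 genes with a length, which held 99.9% of counts). The fit was tested on simulated data.

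The members and lists were chosen with earlier results of these data known. All members, all SRF cofactors, isoforms and smooth muscle markers were named, from each other list the 3 largest called changes with clones pooled among genes averaging 5 CPM or more, and the 5 genes most correlated with *Acta2* and with *Srf*. Genes named beside these were chosen after their values were seen. Alternatives were other scalings, limma-voom (limma 3.58.1), DESeq2 1.42.0, no or a stricter filter, leaving out each library, other models and a 2-fold demand. The lists were also counted without Vcam1KO1 replicate 3, chosen after seeing the data. Promoters are from RefSeq on GRCm38.p6. Figures used python 3.11.15 and matplotlib 3.10.9.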

Additional observations from a re-analysis of the deposited data

Results flagged for a closer look

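For 7 genes the changes of the clones against the shared controls differed by the test of the difference itself, the comparison of Vcam1KO1 with Vcam1KO2. The log2 difference was 2.72 for *Acta2*, 2.97 for *Tagln*, 6.56 for *Myl9*, 3.19 for *Cnn1*, 0.52 for *Cnn2*, 1.09 for *Tpm2* and 1.32 for *Cald1*, in each case with Vcam1KO1 the higher in 3 of 3 libraries. For *Tpm2* the difference is a lower level in Vcam1KO2, where it fell, while its value of -0.56 in Vcam1KO1 did not pass the test. For the others it is a higher level in Vcam1KO1. Among all tested genes 20.2% were higher in Vcam1KO1. No cause was tested.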

How the results depend on the processing

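With both clones pooled, 6 genes passed, and 2 to 7 did when each library was left out: 2 without control replicate 1 and 3 without control replicate 3. Between the clones 7 passed, and 4 to 8 with each library left out, with 4 without Vcam1KO1 replicate 1 or Vcam1KO2 replicate 1. In Vcam1KO1 7 to 9 and in Vcam1KO2 4 to 8 passed. Some of these refits also tested *Actg2*, which passed the filter there only through Vcam1KO1 libraries. The log2 fold change of *Cnn1* in Vcam1KO2, near 0 in the fit as reported, changed sign to -0.0393 with DESeq2 size factors, -0.0388 with DESeq2, -0.0588 with upper-quartile scaling, -0.0353 without a filter and -0.00543 in a fit on 6 libraries, and ran from -0.39 to 0.83 with each library left out. Between the clones, *Srf* ran from -0.14 to 0.13 and *Tpm1* from -0.0258 to 0.194 with each library left out. The cause was not tested. No other member changed direction under these alternatives. Upper-quartile scaling moved the median of all genes between the clones from 0.04 to 0.11. Calls on *Acta2* and *Tagln* in Vcam1KO2 and on *Myl9*, *Acta2*, *Tagln* and *Cald1* with the clones pooled depended on single libraries. Depth limits *Actg2*, and *Tagln* and *Myl9* in the controls. No paired analysis was possible because the labels give the groups no shared replicate numbers. Libraries of different groups may share a passage, which the labels do not give.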
